A study of Mus musculus with 24 samples.

Results

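The 7 genes Car1, Car2, Aqp1, Ache, Mfsd2b, Atp1b2 and Aldh1a1, known from early red cell progenitors, other than the globins, were described in sorted mouse bone marrow cells. They are 7 of the 17149 genes in the table, and each was matched by its Ensembl identifier. They were selected on their high level in GFP-negative HSC, with no threshold, so that level, the GFP difference within HSC and the difference between LMPP and HSC are given as a description without a test for the members. The KO against Ctrl comparison in HSC GFP-negative cells and the comparisons of genotype differences between populations also use that level, and nothing is supported with them. The cells were LSK bone marrow cells (lineage-negative, Sca-1-positive, Kit-positive), divided by CD135 into a CD135-negative gate called HSC and a CD135-positive gate called LMPP (lymphoid-primed multipotent progenitors), and then by a GFP reporter of Rag2. Both genotypes carried the floxed Tal1 allele and the Rag2 reporter. Control (Ctrl) cells were labelled wild type (Tal1 F/F) Rag2GFP, and Tal1-deleted (KO) cells were labelled VaviCre Tal1F/F Rag2GFP. The Vav-driven Cre acts across blood cells and not in one lineage, and the ages of the mice are not given in the sources used here. Genotype, gate and GFP gave 8 groups of 3 libraries. In the labels' descriptions each of 6 numbers is shared by 4 libraries, 1 from each population of one genotype. Whether the 3 came from different mice is not stated in the labels, and the p-values reflect sample-to-sample scatter that could be technical.

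Red cell progenitors switch on enzymes and transporters of the future red cell before haemoglobin accumulates. Carbonic anhydrases convert carbon dioxide and bicarbonate, aquaporin 1 carries water across the membrane, and MFSD2B releases sphingosine 1-phosphate from red cells and platelets. TAL1 is a transcription factor that, with GATA1 and LIM-domain partners, binds paired E-box and GATA motifs at many erythroid genes. The genes are not exclusive to the red cell lineage: Aqp1 is also made by endothelium, Car2 by osteoclasts, and several are shared with megakaryocytes.

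Library totals ran from 6906083 to 11969093 normalised counts. Most libraries had 13583 to 15957 genes above 1 normalised count, and 2 libraries, KO LMPP GFP-positive replicate 3 and Ctrl HSC GFP-positive replicate 2, had 11684 and 11982. Tal1 was 1793 ± 296 (SD, n = 3) in Ctrl and 364 ± 137 in KO HSC GFP-negative cells. Over the 4 populations the KO minus Ctrl difference was -2.12 on the log2 scale (SE 0.35, limma adjusted p = 0.00222), in the direction of the labels, and Rag2 in Ctrl HSC was 27.8 ± 21.8 without and 456 ± 145 with GFP. The HSC GFP-positive libraries also held many granulocyte and monocyte transcripts, with marker sums of 58283 to 131544 in Ctrl against 11591 to 29381 in Ctrl HSC GFP-negative. Stem cell marker sums over 10 genes were 6283 to 10224 in Ctrl HSC and 8478 to 10818 in Ctrl LMPP without GFP, which overlap. In KO they were 4228 to 5897 in HSC and 14552 to 17776 in LMPP without GFP, which do not. In such bulk samples fewer cells of a type and less RNA per cell cannot be told apart.

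The promoters are shown because TAL1 complexes bind E-box (CANNTG) and GATA (GATAA) motifs. The high level that the members share in HSC GFP-negative cells is the one that chose them. RefSeq (GRCm38.p6) start-site windows, from 250 bases before to 50 after the start, matched 4 of the 7 members and held 2 starts of Aldh1a1, and Car1, Car2 and Atp1b2 had no entry there. The 250 bases before each start are printed 5′ to 3′ on the gene's strand, with every CANNTG and GATAA match on either strand in capitals. The intervals are chr6:55336049-55336298 (plus strand) for Aqp1, chr5:137288004-137288253 (plus) for Ache, chr12:4874360-4874609 (minus) for Mfsd2b, chr19:20492333-20492582 (plus) for the first Aldh1a1 start and chr19:20601718-20601967 (plus) for the second.
Aqp1: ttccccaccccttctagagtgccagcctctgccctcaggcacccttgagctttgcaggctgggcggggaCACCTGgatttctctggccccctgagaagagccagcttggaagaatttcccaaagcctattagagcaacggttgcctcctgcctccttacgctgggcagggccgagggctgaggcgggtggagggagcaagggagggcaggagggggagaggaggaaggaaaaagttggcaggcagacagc
Ache: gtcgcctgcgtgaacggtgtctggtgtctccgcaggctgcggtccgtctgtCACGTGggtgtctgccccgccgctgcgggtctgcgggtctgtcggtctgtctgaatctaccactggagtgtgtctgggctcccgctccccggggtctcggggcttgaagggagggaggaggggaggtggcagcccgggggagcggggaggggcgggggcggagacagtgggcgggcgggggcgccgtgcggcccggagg
Mfsd2b: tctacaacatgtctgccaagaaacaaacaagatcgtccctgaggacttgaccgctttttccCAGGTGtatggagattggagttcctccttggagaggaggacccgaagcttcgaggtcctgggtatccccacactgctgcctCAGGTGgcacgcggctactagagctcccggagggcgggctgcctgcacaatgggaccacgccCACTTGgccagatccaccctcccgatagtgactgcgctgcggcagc
Aldh1a1, first start: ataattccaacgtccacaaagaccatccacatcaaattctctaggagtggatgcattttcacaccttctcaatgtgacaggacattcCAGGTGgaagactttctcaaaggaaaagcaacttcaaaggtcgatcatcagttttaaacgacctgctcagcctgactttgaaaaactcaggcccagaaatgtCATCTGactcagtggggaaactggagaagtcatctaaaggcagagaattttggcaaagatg
Aldh1a1, second start: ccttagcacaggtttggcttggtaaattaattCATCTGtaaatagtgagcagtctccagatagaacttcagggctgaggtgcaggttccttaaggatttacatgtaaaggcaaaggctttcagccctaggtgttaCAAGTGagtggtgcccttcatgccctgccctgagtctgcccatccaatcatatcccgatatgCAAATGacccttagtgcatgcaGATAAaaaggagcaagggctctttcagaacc
Over the full windows, CANNTG was found in 5 of 5, against 72.3% of all 32851 promoters searched the same way. GATAA was found in 1 of 5, the second Aldh1a1 start, against 25.4%, and that match lay 31 bases before the start and extended to AGATAA (11.2% of all promoters). CAGATG, a form of CANNTG, was in both Aldh1a1 windows and in 17.2% of all promoters. CACCC was in 3 of 5 against 57.5%. A CTG and a GATAA with 7, 8 or 9 bases between them were in 0 of 5, against 0.901%, 0.618% and 0.861% of all promoters. These matches describe letters in the windows and not bound sites.

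Car2 was the most abundant member in all 8 groups when levels were compared per kb of exon, and in Ctrl HSC GFP-negative cells it stood at 1260 ± 415 normalised counts per kb (SD, n = 3). Car1 followed at 1029 ± 563, within the spread of Car2. A step below were Aqp1 at 103 ± 40.5 and Mfsd2b at 96.4 ± 8.85, which overlapped each other, then Atp1b2 at 63.7 ± 29. Aldh1a1 at 32.7 ± 1.53 and Ache at 20.6 ± 18.6 were last, with overlapping spreads. The members thus span more than an order of magnitude, carried by the 2 carbonic anhydrases.

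**Figure D1:**
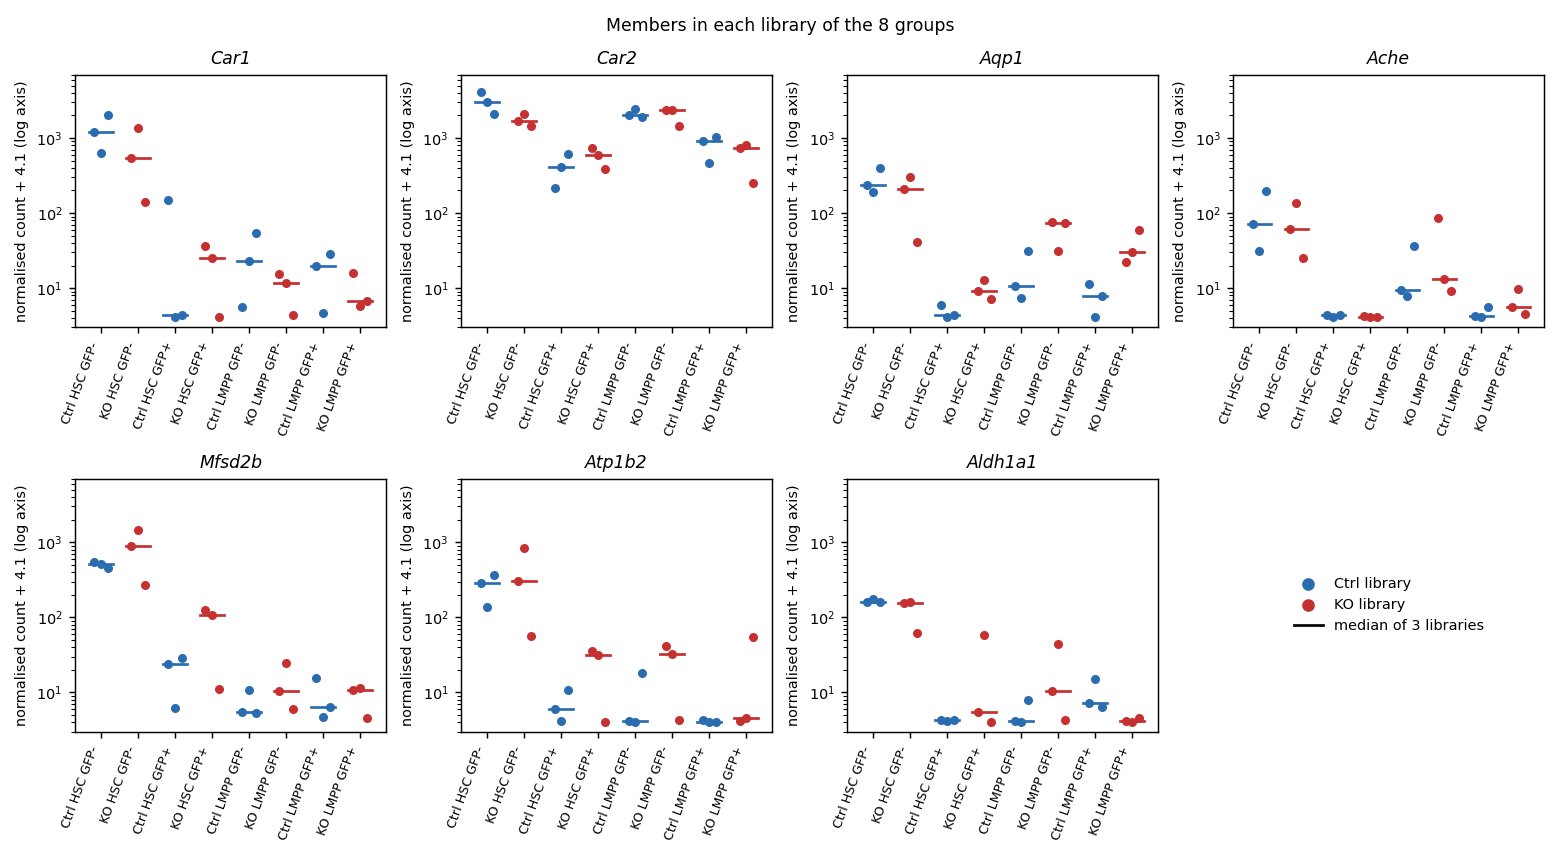
Normalised count (log axis, with 4.1 added) of each member in the 24 libraries, with the 8 groups on the x axis, Ctrl in blue, KO in red and a bar at the median of 3 libraries. For 6 of the members the HSC GFP-negative groups have the highest medians, whereas Car2 is also high in LMPP GFP-negative libraries, at 1425 to 2418. Libraries of other groups also reach into the HSC GFP-negative range for Car1 (147 in Ctrl HSC GFP-positive cells). For Aqp1 these were 72.8 and 68.5 in KO LMPP GFP-negative and 55.1 in KO LMPP GFP-positive cells. For Ache they were 82.4 in KO and 32.2 in Ctrl LMPP GFP-negative cells.

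Car1 (ENSMUSG00000027556) lies on the minus strand at chr3:14766216-14808368 in GRCm38 (mm10), and it was high in HSC GFP-negative libraries and near 0 in most others. Its normalised counts in replicates 1 to 3 of Ctrl HSC GFP-negative cells were 1199, 627 and 2025. In KO they were 534, 1349 and 137, which overlap Ctrl. With GFP, Ctrl HSC held 147, 0.0323 and 0.248, so 1 library alone carried the transcript. In LMPP the Ctrl values were 1.45, 18.9 and 49.7 without GFP and 15.9, 0.632 and 24.8 with it. The KO LMPP values lay between 0.247 and 11.9.

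Car2 (ENSMUSG00000027562), which codes for a fast cytosolic carbonic anhydrase, starts 77.9 kb beyond Car1 on the plus strand, at chr3:14886273-14900770, and Car3 lies between them. It differed from its neighbour in being high in LMPP too. Ctrl HSC GFP-negative libraries held 4092, 2976 and 2086 normalised counts and Ctrl LMPP GFP-negative libraries 2046, 2418 and 1900. Libraries with GFP were lower in both gates: 212, 405 and 602 in Ctrl HSC, and 921, 463 and 1020 in Ctrl LMPP. The KO order was alike, with 1691, 2112 and 1426 in HSC and 2377, 2387 and 1425 in LMPP without GFP. With GFP the KO libraries held 740, 582 and 378 in HSC and 729, 809 and 251 in LMPP, and no GFP-positive library reached the lowest GFP-negative one of its gate and genotype.

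Aqp1 (ENSMUSG00000004655, chr6:55336432-55348555, plus strand) held 232, 190 and 391 normalised counts in Ctrl HSC GFP-negative libraries. The KO values were 207, 295 and 37.6. Ctrl HSC GFP-positive libraries held 1.92, 0.0317 and 0.242, and KO ones 5.16, 8.66 and 3.01, so all 3 KO libraries lay above all 3 Ctrl ones at levels close to 0. Aqp1 was the 1 member whose genotypes did not overlap there, and 14.3% of all genes did not overlap in one direction or the other. The LMPP values of Aqp1 are given with the tests.

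Atp1b2 (ENSMUSG00000041329, chr11:69599736-69605942, minus strand) codes for a beta subunit, which carries the sodium pump to the membrane. Ctrl HSC GFP-negative libraries held 282, 132 and 366 normalised counts and KO ones 297, 827 and 51.7, the highest and the lowest value of the 6 both in KO. Outside these groups Ctrl libraries did not pass 14.3. KO libraries reached 31.6 in HSC with GFP, 37.8 in LMPP without it and 50.9 in LMPP with it, but each of these groups also held a KO library under 0.3.

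Mfsd2b (ENSMUSG00000037336, chr12:4862440-4874359, minus strand) was the tightest member apart from Aldh1a1 in Ctrl HSC GFP-negative libraries, at 537, 505 and 447 normalised counts. The KO values were 890, 1439 and 267, so 2 KO libraries lay above and 1 below all Ctrl libraries. HSC GFP-positive cells kept low but measurable levels, 19.9, 2.19 and 24.2 in Ctrl and 120, 103 and 7.02 in KO. In LMPP all 12 libraries were between 0.493 and 20.6.

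Aldh1a1 (ENSMUSG00000053279, chr19:20492715-20643465, plus strand), which oxidises retinaldehyde to retinoic acid, showed almost no spread in Ctrl HSC GFP-negative cells, at 157, 170 and 158 normalised counts. The KO libraries held 149, 157 and 58.7, the first 2 close to the Ctrl level. Elsewhere it stayed at or under 11 in Ctrl, whereas 1 KO HSC GFP-positive library held 55.0 and 1 KO LMPP GFP-negative library 39.9.

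Ache (ENSMUSG00000023328, chr5:137287519-137294466, plus strand), an enzyme that splits acetylcholine and that is anchored on red cells, was the lowest member per kb in Ctrl HSC GFP-negative cells. Ctrl HSC GFP-negative libraries held 66.6, 27.1 and 192 normalised counts, and KO ones 57.6, 134 and 21.3. In HSC with GFP none of the 6 libraries passed 0.242. Ctrl LMPP GFP-negative libraries held 5.40, 3.84 and 32.2 and KO ones 82.4, 9.11 and 5.07. Ache thus kept part of its level in single LMPP libraries, whereas Car2 was high in every LMPP GFP-negative one.

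Set side by side, HSC without GFP exceeded HSC with GFP for every member, in both genotypes. This is the contrast that chose them, and nothing is tested here. On the scale log2(value + 4.1), the GFP-positive minus GFP-negative difference in Ctrl HSC ran from -6.37 for Car1 to -2.97 for Car2, with a median of -5.24. All 7 members had every GFP-negative library above every GFP-positive one, which 12.1% of all genes also had. In KO HSC the differences ran from -4.90 for Car1 to -1.65 for Car2, with a median of -3.86, and again all 7 were without overlap, against 9.04% of all genes. Differences of genes near 0 are understated on this scale.

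The LMPP minus HSC difference without GFP, also described only, separated the members. In Ctrl it was -6.19 for Mfsd2b, -5.93 for Car1, -5.16 for Atp1b2, -5.01 for Aldh1a1 and -4.27 for Aqp1, and the libraries of these 5 did not overlap (7.11% of all genes). It was -2.44 for Ache and -0.48 for Car2, whose libraries overlapped. In KO, Car1, Mfsd2b, Atp1b2 and Aldh1a1 did not overlap (11.1% of all genes), Aqp1 stood at -1.31 in place of -4.27, and Car2 at 0.22.

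The KO against Ctrl comparison asks whether the members change when Tal1 is deleted, and none of the 7 members passed the test in any of the 4 populations or in their mean. All 7 members had passed the filter on low values, which is met over all 24 libraries and not within each population. Ache held at most 0.242 normalised counts in each HSC GFP-positive library, so the comparison there says nothing about Ache. The call was a limma adjusted p under 0.05 over 16215 genes. It was met by 0.16% of all genes in HSC GFP-negative cells, 0.432% in HSC GFP-positive, 0.0555% in LMPP GFP-negative, 0.0432% in LMPP GFP-positive cells and 0.469% in the mean of the 4. The number of genes with an unadjusted p under 0.05 was 557, 2476, 402, 1251 and 1254, and among members 0, 0, 1, 1 and 1, each time Aqp1. An exact two-sided permutation test of 3 against 3 libraries cannot go below 0.1. Tal1, the deleted gene, passed in LMPP GFP-positive cells (limma adjusted p = 0.0307) and in the mean of the 4. Its KO values in LMPP GFP-positive cells were 62.9, 136 and 0.499, against 518, 396 and 575 in Ctrl. The 0.499 was in replicate 3, a library of low detection, and a fit of Tal1 without it is not given here. Tal1 did not pass in HSC GFP-negative (limma adjusted p = 0.418), HSC GFP-positive (limma adjusted p = 0.513) or LMPP GFP-negative cells (limma adjusted p = 0.9998). In those populations the test missed the deleted gene too, so a missing call of a member there does not show an unchanged level.

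**Figure D2:**
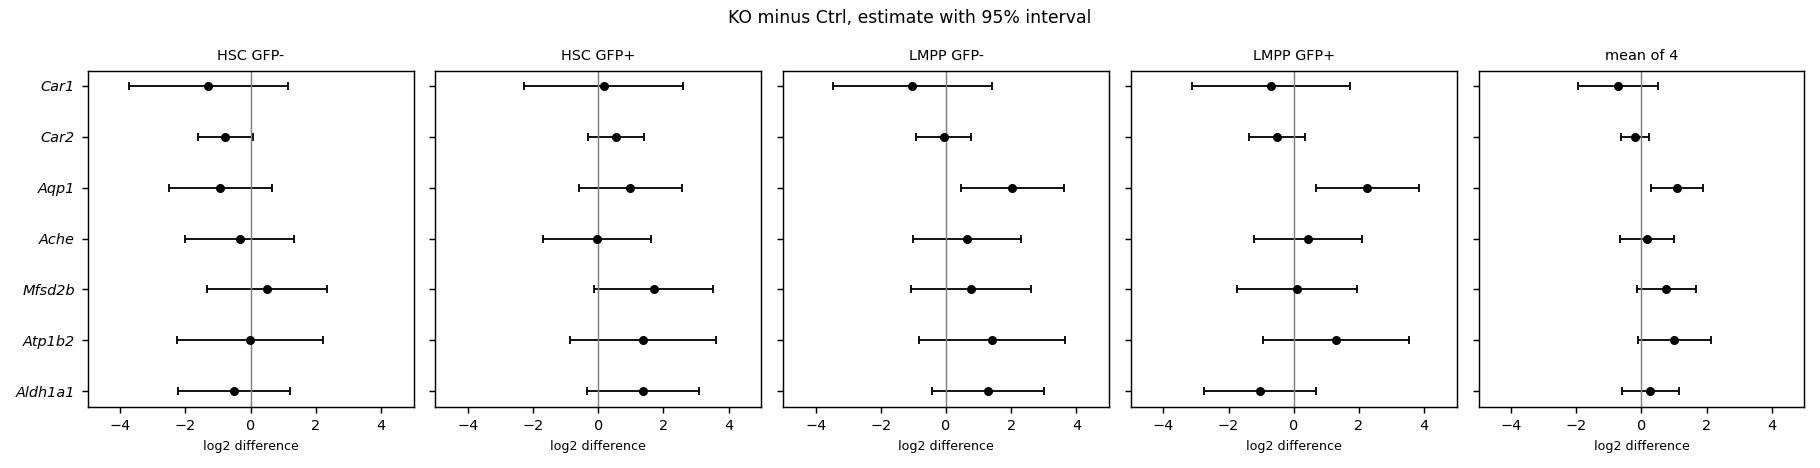
KO minus Ctrl log2 difference of each member (x axis) with its 95% interval, in the 4 populations and their mean. Every interval in the HSC panels spans 0, and those of Aqp1 in both LMPP panels and in the mean lie above it.

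In HSC GFP-negative cells, where the members are highest, 6 of 7 had a KO minus Ctrl difference below 0, and the member median was -0.51 against 0.02 for all genes, values that rest in part on 1 library given below. Car2 was the most precise, with 1743 normalised counts in KO against 3052 in Ctrl, a log2 difference of -0.77 and a 95% interval of -1.62 to 0.08. The Car1 interval, -3.74 to 1.14, shows how little these libraries limit its change. Mfsd2b had a difference of 0.50 (95% interval -1.34 to 2.33) and Atp1b2 of -0.02 (-2.25 to 2.22). Such intervals allow a fold change of several-fold in either direction, so a missing call does not show an equal level. Elsewhere more members lay above 0 than below. In HSC GFP-positive cells 6 of 7 did (median 0.99 against 0.19 for all genes), the other being Ache, near 0 in every library there. In LMPP GFP-negative cells 5 of 7 did (0.76 against -0.01). In LMPP GFP-positive cells 4 of 7 did (0.09 against -0.10), and in the mean of the 4 populations 5 of 7 (0.28 against 0.03). No common direction is read from these values.

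1 library stood apart from the rest. KO HSC GFP-negative replicate 3 was the lowest of all 6 libraries for each of the 7 members, from 37.6 against 190 or more for Aqp1 to 1426 against 1691 or more for Car2. This library also had the lowest total of the 24, 6906083 normalised counts. How many of all genes were lowest in it is not given here. Its sum over 6 megakaryocyte markers was 572 against 1428 and 1294 in the other KO libraries, and over 10 mast cell and basophil markers 4113 against 14334 and 14238. Over 7 mature red cell markers it was 2346 against 2885 and 3393. Some other sums were not low in this library. Stem cell sums were 5897 against 5835 and 4228, and granulocyte and monocyte sums 6672 against 6047 and 6015. Whether the differences in these sums play a part in the low members was not tested. Without this library still 0 of 7 members passed, the member median was -0.065 and 4 of 7 differences were below 0. The Atp1b2 difference went from -0.02 to 1.04, that of Ache from -0.33 to 0.29 and that of Aldh1a1 from -0.51 to -0.07, while Car2 stayed at -0.64.

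**Figure D3:**
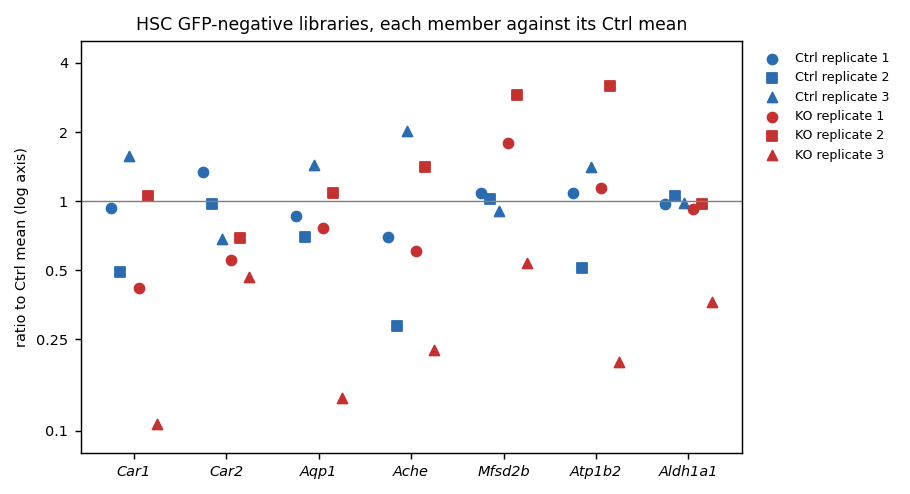
Ratio of each member to its Ctrl mean (log axis) in the 6 HSC GFP-negative libraries, blue for Ctrl and red for KO, with a symbol per replicate number. KO replicate 3 (red triangles) is the lowest point for every member.

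Aqp1 was the member with the largest genotype difference in LMPP. Ctrl LMPP GFP-negative libraries held 6.71, 3.27 and 27.4 normalised counts and KO ones 72.8, 26.8 and 68.5, with 1 KO library just under the highest Ctrl one. The log2 difference was 2.03 (SE 0.77, 95% interval 0.45 to 3.62, limma adjusted p = 0.9998). With GFP the Ctrl values were 7.36, 0 and 3.78 and the KO values 18.5, 25.8 and 55.1, and the difference was 2.25 (SE 0.77, 95% interval 0.67 to 3.84, limma adjusted p = 0.626). There Aqp1 and Aldh1a1 were the 2 members whose genotypes did not overlap, as 9.55% of all genes did not, and Aldh1a1 went the other way, with 0.123, 0 and 0.465 in KO against 3.06, 11 and 2.22 in Ctrl. Over all 4 populations it was 1.09 (SE 0.38, limma adjusted p = 0.396), so Aqp1 failed the correction everywhere. The summed level of endothelial markers was 840 to 1377 in Ctrl and 1171 to 1287 in KO LMPP GFP-negative libraries. With GFP it was 851 to 1303 in Ctrl and 1328, 1435 and 3798 in KO. The 3798 was in replicate 3, a library of low detection, which also held the highest Aqp1 value of that group, 55.1. Stab2 was under 1 in every library of 3 of these 4 groups. The part of these markers in the Aqp1 difference was not tested.

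The genotype difference itself was compared between gates. For LMPP minus HSC without GFP, 0 of 7 members passed, as did 0% of all genes (0 of 16215 in limma, with 384 at an unadjusted p under 0.05), and Aqp1 had the largest value at 2.96 (SE 1.09, limma adjusted p = 0.9998). For GFP-positive minus GFP-negative HSC, 0 of 7 passed against 0.00617% of all genes. Car2 came nearest there, at 1.32 (SE 0.59, limma adjusted p = 0.659). Both comparisons share the HSC GFP-negative libraries, whose level chose the members, and no direction is read from them.

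The reporter was tested in LMPP, which are not the cells whose high level chose the members. The members were still chosen with earlier results of these data known, so these tests are not independent evidence. Car2 was the member that passed. In KO LMPP it fell with GFP from 2063 to 596 normalised counts, a log2 difference of -1.91 (SE 0.41, limma adjusted p = 0.0178), lower in 3 of 3 libraries. This was the only call among 7 members, beside 1.15% of all genes. The call was lost without KO LMPP GFP-negative replicate 1 (-1.79, limma adjusted p = 0.0965), without replicate 2 (-1.79, adjusted p = 0.109) and without GFP-positive replicate 3 (-1.38, adjusted p = 0.173), a library of low detection. In Ctrl LMPP the Car2 difference was -1.47 (SE 0.41, limma adjusted p = 0.307), and 0 of 7 members passed beside 0.0555% of all genes. Car2 and Ache did not overlap between GFP states in Ctrl LMPP, as 14.8% of all genes did not, and Car2 alone of the members did not in KO LMPP, beside 19.1%. Whether the GFP difference of Car2 differs between genotypes was not tested. All 7 differences were below 0 in KO LMPP, with a median of -0.82 beside -0.22 for all genes. Marker sums of other cells moved with GFP in KO LMPP: stem cell sums were 14552 to 17776 without GFP and 3112 to 4071 with it, and B lineage sums 1081 to 1657 and 9286 to 23051. Their part in the Car2 difference was not tested. Ache had a difference of -1.81 in KO LMPP (SE 0.81, limma adjusted p = 0.286) and of -1.61 in Ctrl LMPP (SE 0.81, limma adjusted p = 0.99995).

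Few relatives of the members passed a test, and the map of their families shows their levels. Of 7 other carbonic anhydrases tested, Car8 alone changed with genotype in HSC GFP-negative cells, rising from 0.446 ± 0.772 to 35.7 ± 21.8 normalised counts (log2 difference 2.93, SE 0.55, limma adjusted p = 0.0153). Car8 fell with GFP in KO HSC (log2 difference -2.72, limma adjusted p = 0.0136). With 1 of the 6 libraries left out in turn, both Car8 calls were lost each time except without KO HSC GFP-negative replicate 3, at differences of 2.59 to 3.53 and -3.32 to -2.37. Car3, which lies between Car1 and Car2, had no call in any comparison. None of 4 other aquaporins and neither of 2 other genes of the cholinesterase list passed any test. Of 14 other sphingosine 1-phosphate genes, S1pr1, a receptor for it, fell with GFP in Ctrl HSC from 97.5 ± 29.6 to 12.6 ± 18.9 (log2 difference -3.21, SE 0.87, limma adjusted p = 0.0437). That call was lost without any 1 of the 6 libraries except Ctrl HSC GFP-positive replicate 1, at -4.14 to -2.53. Spns2, the other exporter known for this lipid, had no call.

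**Figure D4:**
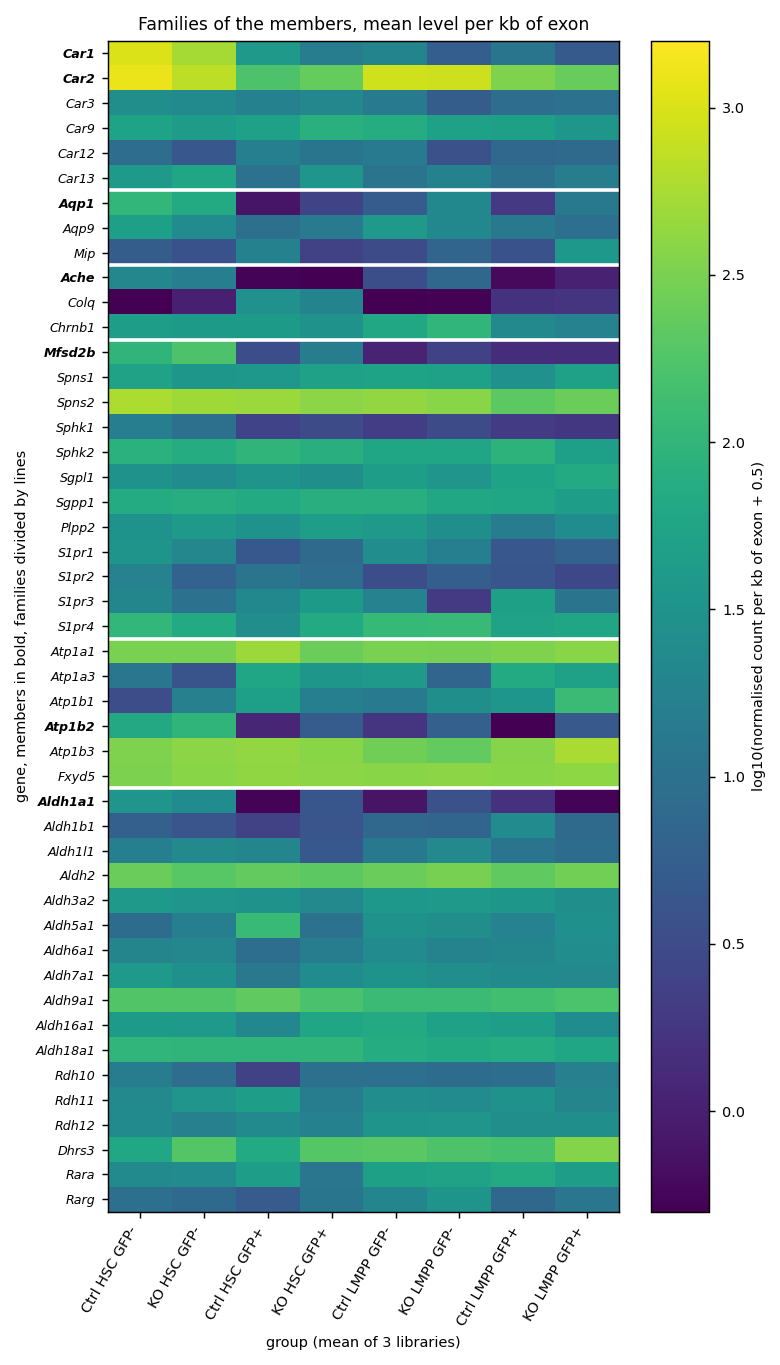
Mean of 3 libraries as log10 of normalised count per kb of exon plus 0.5 (colour) for 47 genes of the members' families with a group mean of at least 50, in the 8 groups on the x axis. Members are in bold. Most relatives keep a similar colour across groups where the members other than Car2 go from yellow or green to purple. Group means of Car2 stay between 168 and 1260 per kb.

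Among 6 other sodium pump genes, Atp1b1, an alternative beta subunit, went the opposite way to Atp1b2. It rose with GFP in Ctrl HSC from 8.96 ± 4.71 to 146 ± 124 normalised counts (log2 difference 3.17, SE 0.83, limma adjusted p = 0.0371), and the call was lost without any 1 of the 6 libraries except Ctrl HSC GFP-positive replicate 1, at 2.49 to 3.93. Among the aldehyde dehydrogenase and retinoid genes, Dhrs3, which turns retinaldehyde back to retinol, rose in KO over the 4 populations by 0.96 (SE 0.19, limma adjusted p = 0.0125), a call kept without any 1 of the 24 libraries, and Aldh1a1 itself stood at 0.28 there.

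Other early erythroid genes were high in the same libraries as the members. In Ctrl HSC GFP-negative cells Gata1 was 144 ± 41.1, Klf1 135 ± 74.5 and Epor, the erythropoietin receptor, 81.8 ± 31.1 normalised counts. Of 46 such genes tested, 18 fell with GFP in Ctrl HSC and 0 rose (limma adjusted p under 0.05), beside 2.72% of all genes, and their median difference was -2.37 against -0.24. In KO HSC 5 of 46 fell, beside 0.376% of all genes: Klf1, Trib2, Slc38a5, Ces2g and Mt2. With 1 of the 6 libraries left out, 9 to 18 of the 18 calls were kept in Ctrl, fewest without Ctrl HSC GFP-negative replicate 3, and 2 to 5 of the 5 in KO, where Ces2g and Mt2 kept theirs in all 6 cases. The list was written with earlier results of these data known and is not independent evidence. Under Tal1 loss 0 of 46 passed in HSC GFP-negative cells. In HSC GFP-positive cells Zfpm1, the partner of GATA1, rose by 2.599 and Hemgn by 3.15. The Zfpm1 call was lost without any 1 of the 6 libraries except Ctrl replicate 3, and that of Hemgn without Ctrl replicate 2, KO replicate 2 or KO replicate 3. Hemgn and Sptb, which codes for a spectrin of the red cell skeleton, rose over the 4 populations, by 1.41 and 2.25. With 1 of the 24 libraries left out, the Hemgn call was lost in 15 cases (1.13 to 1.60), and that of Sptb in 3: Ctrl LMPP GFP-negative replicate 1 or 2 and KO HSC GFP-negative replicate 2 (2.02 to 2.53 over all 24).

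Some genes of mature red cells passed the test for Tal1 loss, in which no member passed. Of 11 tested, 3 rose in KO in HSC GFP-negative cells, 3 in HSC GFP-positive, 2 in LMPP GFP-negative and 5 in LMPP GFP-positive cells, and 7 in the mean of the 4, with none falling. The 7 in the mean were Hba-a1, Hba-a2, Hbb-bs, Hbb-bt, Slc4a1, Alas2 and Epb42, and without any 1 of the 24 libraries 6 or 7 of them passed, Epb42 being lost without Ctrl HSC GFP-negative replicate 2, KO HSC GFP-negative replicate 2 or Ctrl LMPP GFP-positive replicate 1. The calls in single populations rested on few libraries. In HSC GFP-negative cells 0 of the 3 were kept without Ctrl replicate 1 or 2 or KO replicate 1 or 2, and in HSC GFP-positive cells 0 of the 3 without KO replicate 2 or 3 and 1 without Ctrl replicate 2. In LMPP GFP-negative cells 0 of the 2 were kept without any 1 of the 6 libraries. In LMPP GFP-positive cells 0 of the 5 were kept without Ctrl replicate 1 or 2 or KO replicate 3, and 2 without Ctrl replicate 3. Their differences in the 4 populations stayed between 3.28 and 6.37. In HSC GFP-negative cells Hbb-bs, a beta globin, rose by 4.40 on the log2 scale (SE 0.84, limma adjusted p = 0.019) and Hba-a1, an alpha globin, by 3.69. Whether the response of these genes differs from that of the members was not tested. Mature red cell marker sums were 159 to 370 in Ctrl and 2346 to 3393 in KO HSC GFP-negative libraries, beside sums over the 7 members of 4628 to 6566 and 1999 to 6312. In the same libraries mast cell and basophil marker sums were 2008 to 2135 in Ctrl and 4113 to 14334 in KO, and granulocyte and monocyte sums 11591 to 29381 and 6015 to 6672. In KO LMPP GFP-positive cells the mature red cell sum was 8346 in replicate 3, a library of low detection, against 759 and 1164 in the others. The part of these cells in the difference was not tested.

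Across the 24 libraries the pattern most like the mean z-score of the members was that of Ces2g, a carboxylesterase (Pearson r = 0.97). Pf4 and Vwf, which platelets store (0.92 and 0.92), Nckap1 (0.90), Ermap, a red cell membrane protein (0.89), Gata1 (0.89), Sept8 (0.85), Gse1 (0.84) and Clstn3 (0.84) followed. The libraries share groups, and the 6 HSC GFP-negative ones stand apart, so these values describe that separation. Between members r was 0.64 to 0.87 in the 15 pairs without Car2 and 0.44 to 0.74 in the 6 pairs with it. Car1 and Car2, though close neighbours, had an r of 0.50, and the nearest patterns to Car2 were Gucy1a1 (0.91), Nynrin (0.87) and Nfia (0.86), none of which was among the nearest 3 of another member.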

How the data were processed

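RNA of the 24 libraries was sequenced for 76 cycles, per the labels' protocols. The deposited values are normalised counts, a signal scale made by the authors. Per the submitters' processing notes, the authors used Trimmomatic 0.33, HTSeq 0.6.1, edgeR without a stated version, and the mm10 build. The aligner and the normalisation function are not given in the sources used here. Only 0.594% of values lay within 0.001 of a whole number, so the read depth is unknown and count models were not used. Of 24 libraries, 13 list no gene at 0, so an exact 0 in one library can equal a small fraction in another.

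GENCODE M21 (GRCm38) gave gene names, coordinates and exon lengths, and held 16978 of the 17149 genes. Genes with at least 1 ppm of the library total in at least 3 libraries were kept (16215). On log2(value + 4.1), where 4.1 normalised counts are worth 0.5 ppm, 8 group means were fitted with limma 3.58.1 in R 4.3.3 (intensity trend, 16 residual degrees of freedom), with Benjamini-Hochberg adjustment within each of 9 tested comparisons. A gene passed at an adjusted p under 0.05. The fit was tested on simulated data. For HSC by GFP and LMPP against HSC, members were only described; calls of other list genes there were added later.

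The members and all gene lists were chosen with earlier results of these data known. List genes are named where they passed in a comparison, up to 6 a list by smallest p, with the members, Tal1 and Rag2; Car3, Spns2, Gata1, Klf1, Epor and all 5 genes that fell with GFP in KO HSC were named after their values were seen, and pattern-alike genes are the 10 highest Pearson correlations with the members' mean z-score, and the 3 highest for each member. Some genes that these rules name are not reported here. Alternatives were other pseudocounts, filters, scalings, library weights, blocks, low-detection libraries left out, the libraries of 1 comparison alone, and each replicate left out; for list genes other than the members, leaving out each library was added after seeing the data.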

Additional observations from a re-analysis of the deposited data

Results flagged for a closer look

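Aldh1a1 moved in opposite directions between LMPP and HSC depending on GFP in Ctrl cells. Without GFP, LMPP libraries held 0.124, 0 and 3.76 normalised counts against 157, 170 and 158 in HSC, a log2 difference of -5.01. With GFP, LMPP libraries held 3.06, 11 and 2.22 against 0.249, 0.0311 and 0.236, a difference of 1.05. The 2 differences are 6.05 apart, and every library of each contrast moved one way. The first contrast holds the level that chose the gene, and the difference was not tested. All values with GFP are close to 0. Ctrl HSC GFP-positive replicate 2 is a library of low detection. Of 84 such pairs of contrasts over the 7 members, Aldh1a1 gave the 1 pair that moved so. The share of all genes with such a move was not computed, so how common it is cannot be told.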

How the results depend on the processing

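The count of members passing stayed at 0 of 7 for Tal1 loss in HSC GFP-positive cells, in both LMPP populations and in the mean of 4, under all alternatives run. In HSC GFP-negative cells it became 1 with array weights (Car2). For GFP in Ctrl LMPP, 1 member (Car2) passed with array weights, without the 2 libraries of low detection and with only the libraries of the comparison. For GFP in KO LMPP, 0 passed without the 2 libraries of low detection, with no intensity trend and with only the libraries of the comparison, and leaving out single replicates gave 0 to 1. The cause of these changes was not tested, and some of the settings also held fewer libraries.

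Some KO minus Ctrl differences that did not pass changed sign. Atp1b2 in HSC GFP-negative cells was 0.028 with a pseudocount of 2 ppm, 0.086 with values scaled to equal totals and 0.062 with array weights, and Ache there was 0.00553 with array weights. In HSC GFP-positive cells Car1 was -0.18 with a pseudocount of 2 ppm and -0.71 without the 2 libraries of low detection, and Ache was 0.077 with libraries shifted to a common median. Car2 was 0.064 in LMPP GFP-negative cells with array weights and 0.019 in LMPP GFP-positive cells without the 2 libraries of low detection. For GFP in KO LMPP, Car1 was 0.025 with a pseudocount of 0.1 ppm and 0.067 without the 2 libraries of low detection.

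Leaving out 1 replicate gave these ranges where a sign turned. For KO against Ctrl in HSC GFP-negative cells they were -0.97 to 0.35 for Ache, -0.91 to 1.04 for Atp1b2 and -0.020 to 1.19 for Mfsd2b, and in HSC GFP-positive cells -0.71 to 1.89 for Car1. In LMPP GFP-negative cells they were -0.35 to 1.33 for Ache and -0.20 to 0.17 for Car2, and in LMPP GFP-positive cells -0.87 to 0.019 for Car2 and -0.27 to 0.60 for Mfsd2b. In the mean of 4 they were -0.071 to 0.35 for Ache and -0.027 to 0.47 for Aldh1a1. For GFP in Ctrl LMPP they were -1.33 to 0.34 for Car1 and -0.32 to 0.55 for Mfsd2b, and in KO LMPP -0.65 to 0.27 for Car1 and -0.96 to 0.070 for Mfsd2b.

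Libraries of one population with the same replicate number in the 2 genotypes had correlated deviations with a median of 0.02 and 1 of 12 over 0.1. For other replicate numbers these were -0.007 and 0 of 24. Over all pairs between genotypes the median was 0.03 with 5 of 48 over 0.1 for the same replicate number, against -0.017 and 0 of 96. Whether same-numbered replicates of the 2 genotypes share a source is not stated in the labels and was not tested. Each number in the descriptions is shared by 4 libraries of 1 genotype: same-numbered pairs within a genotype had a median of 0.058, with 8 of 36 over 0.1, against -0.034 and 1 of 72 for other numbers. With that number as a random block, 50 genes and not 76 passed in the mean of 4, 0 of 7 members passed for Tal1 loss, and Car2 kept its call in KO LMPP (limma adjusted p = 0.0131). With the replicate block, 0 of 7 members passed in each Tal1 comparison and in GFP in Ctrl LMPP, and 1 in GFP in KO LMPP. Over all genes, the calls behind the background shares also moved: over these alternatives and single replicates left out, they were 2 to 174 against 26 for Tal1 loss in HSC GFP-negative cells, 0 to 704 against 70 in HSC GFP-positive, 0 to 44 against 9 in LMPP GFP-negative, 0 to 9 against 7 in LMPP GFP-positive cells and 46 to 182 against 76 in their mean. For GFP they were 0 to 141 against 9 in Ctrl LMPP and 8 to 799 against 187 in KO LMPP. With equal library totals the all-gene median for Tal1 loss in HSC GFP-positive cells was 0.52 and not 0.19, and the member median 1.10 and not 0.99. With 3 libraries a group and members near 0 in most groups, small differences were not detectable. The described differences depend on the pseudocount: from 0.1 to 2 ppm the member median for GFP went from -6.53 to -3.75 in Ctrl and -4.59 to -2.83 in KO HSC, and for LMPP against HSC without GFP from -6.46 to -3.35 in Ctrl and -4.05 to -2.22 in KO.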

Other observations

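Megakaryocyte and platelet genes lay in the same libraries as the early erythroid members. Their marker sum over 6 genes was 1014 to 1177 in Ctrl HSC GFP-negative libraries and at most 206 in every library outside the HSC GFP-negative groups. Of 20 genes of a megakaryocyte list, 10 fell with GFP in Ctrl HSC (limma adjusted p under 0.05), beside 2.72% of all genes called in either direction. The log2 differences were -5.62 for Vwf, -5.21 for Pf4 and -4.56 for Gp5, a platelet glycoprotein. This is the contrast that chose the members, and the list was written with earlier results of these data known, so it is not independent evidence. Pf4, Gp1ba and Gp5 fell in KO HSC, beside 0.376% of all genes called there. With 1 of the 6 libraries left out, 6 to 10 of the 10 calls were kept in Ctrl, fewest without GFP-positive replicate 2, and 1 to 3 of the 3 in KO, fewest without GFP-negative replicate 1. None of the 20 passed for KO against Ctrl in any population or in the mean of 4.

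Among 14 genes of the TAL1 complex list, Cbfa2t3, a corepressor of that complex, fell in KO over the 4 populations (log2 difference -1.05, SE 0.17, limma adjusted p = 0.00204). Gata1 and Gata2 fell with GFP in Ctrl HSC (log2 differences -5.08 and -4.62), in the contrast that the members also show. The Gata1 call was kept without any 1 of the 6 libraries, and that of Gata2 was lost without any 1 of the 3 GFP-negative libraries or without GFP-positive replicate 2.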
